A study of Homo sapiens with 12 samples.

Results

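Decitabine is a nucleoside drug that reaches DNA only after it has been carried into the cell and phosphorylated, and 10 genes of that route are described here across the 4 groups of an RNA sequencing experiment. They are DCTPP1, the pyrophosphatase named in the title of the study, with SLC29A1, SLC29A2, DCK, CMPK1, CDA, DCTD, SAMHD1, DUT and RRM2B. They were chosen by symbol from the 26341 genes of the deposited table, and all 10 were among the 15890 genes that passed the filter on low counts. By its title, the study asked whether inhibition of DCTPP1 by triptolide raises the response of tumour cells to nucleoside DNMT inhibitors. The cells were DU145, a human prostate carcinoma line taken from a metastasis in the central nervous system. All groups were this 1 line, so no other genetic background is represented.

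The control group (Ctrl) received neither drug, the TPL group received 2 nM triptolide, the DAC group 33 nM decitabine and the DACTPL group both, with 3 libraries each. The decitabine dose of DACTPL was 33 nM in the sample characteristics and 3 nM in the treatment protocol, and this was not settled. Drug was added daily on 3 days and RNA was taken after a further 17 days without drug, so the levels are those of cells that had long left exposure. The labels do not say that the 3 libraries of a group came from separate cultures, so the p-values cover only how these libraries varied, and that variation may be technical. Because whole cultures were sequenced, a lower level cannot be told apart between fewer cells with the RNA and less RNA in each cell.

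Decitabine, a deoxycytidine analogue, enters cells through equilibrative nucleoside transporters and is phosphorylated first by deoxycytidine kinase. The triphosphate is the form that DNA polymerases insert, after which the base traps DNA methyltransferases. Deaminases remove the nucleoside or its monophosphate from this route, and the hydrolases SAMHD1 and DCTPP1 break down the triphosphate. Triptolide, a diterpenoid from a vine, binds the ERCC3 helicase of TFIIH and blocks transcription by RNA polymerase II.

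The epithelial markers EPCAM, KRT8, KRT18, KRT19 and CDH1 were present in all 12 libraries, with a summed level of 2040 to 2760 CPM, normalized counts scaled to library size. HBB was at 0 in all 12, and the 5 blood markers summed to 1.69 to 2.96 CPM. Library totals lay between 26430984 and 47022176 expected counts, and the members had between 655 and 6576 counts in a library, so that counting alone adds at most 3.91% (SD) to a member's value. Small structural RNAs, such as snoRNAs, took 2.08 to 2.35% of Ctrl counts, 3.39 to 4.55% of TPL counts, 2.72 to 2.89% of DAC counts and 2.89 to 3.39% of DACTPL counts.

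Decitabine acts at CpG dinucleotides, so the bases before a transcription start are shown for 3 members, DCTPP1, SAMHD1 and CDA. SAMHD1 alone among the members passed the test in a comparison, and the CDA run is poor in CpG. Each run holds the 250 bases before an annotated transcription start from RefSeq on GRCh38.p14, 5′ to 3′ on the strand of the gene, with every CpG in capitals. The DCTPP1 run contains the ATG that opens the reading frame of DCTPP1 itself, followed by a splice donor (gtaag). It therefore lies inside a longer DCTPP1 transcript, and its CpG content does not describe the region upstream of that transcript. DCTPP1 lies on the minus strand at chr16:30429801-30430050, SAMHD1 on the minus strand at chr20:36951709-36951958, and CDA on the plus strand at chr1:20588847-20589096.
DCTPP1: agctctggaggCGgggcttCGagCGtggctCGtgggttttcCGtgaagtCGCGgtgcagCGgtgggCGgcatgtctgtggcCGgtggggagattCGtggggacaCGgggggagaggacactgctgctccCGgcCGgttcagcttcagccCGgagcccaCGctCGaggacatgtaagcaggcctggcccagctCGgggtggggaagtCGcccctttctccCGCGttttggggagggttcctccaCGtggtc
SAMHD1: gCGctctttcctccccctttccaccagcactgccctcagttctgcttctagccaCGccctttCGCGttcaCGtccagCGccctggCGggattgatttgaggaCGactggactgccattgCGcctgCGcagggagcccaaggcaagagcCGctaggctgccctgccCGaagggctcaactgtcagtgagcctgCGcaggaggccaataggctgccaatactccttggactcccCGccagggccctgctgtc
CDA: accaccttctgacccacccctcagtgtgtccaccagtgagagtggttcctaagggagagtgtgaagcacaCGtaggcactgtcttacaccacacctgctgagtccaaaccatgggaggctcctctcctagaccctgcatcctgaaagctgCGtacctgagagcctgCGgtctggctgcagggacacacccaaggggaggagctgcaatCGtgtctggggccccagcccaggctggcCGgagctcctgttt
The DCTPP1 run held 22 CpG and the SAMHD1 run 14, against 5 in that of CDA. Of 35114 promoters of the same length in the table, 28.0% held at least 22 CpG, 44.8% at least 14 and 65.7% at least 5, and the median was 11. The search was for the letters CG, which read the same on both strands. RefSeq starts were at hand for 8 of the 10 members, with 13 starts in all, and at 10 of these the ratio of observed to expected CpG was above 0.6, as at 47.5% of all promoters. No methylation was measured in these libraries, so CpG content is given as a description of the sequence alone.

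In TPM, which scales counts to transcript length as well as library size, the members fell into a higher and a lower set. Over the 12 libraries CMPK1 averaged 57.7 ± 5.05 TPM (SD, n = 12), DUT 53.7 ± 6.09, CDA 50.6 ± 6.86 and DCTPP1 40.9 ± 5.34. DCTPP1 ranged from 30.1 to 49.9 TPM, and each of these 4 overlapped its neighbour in the order. SLC29A1 followed at 24.9 ± 3.12 TPM, with its highest library at 27.7, below the lowest of DCTPP1. SAMHD1 averaged 17.8 TPM, DCTD 14.5, RRM2B 14.0, SLC29A2 13.3 and DCK 13.3, and their ranges overlapped from each to the next. In Ctrl alone DCTPP1 stood clear of both neighbours, with 36.0 to 43.1 TPM against 46.5 to 58.6 for CDA and 25.1 to 27.7 for SLC29A1.

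**Figure D1:**
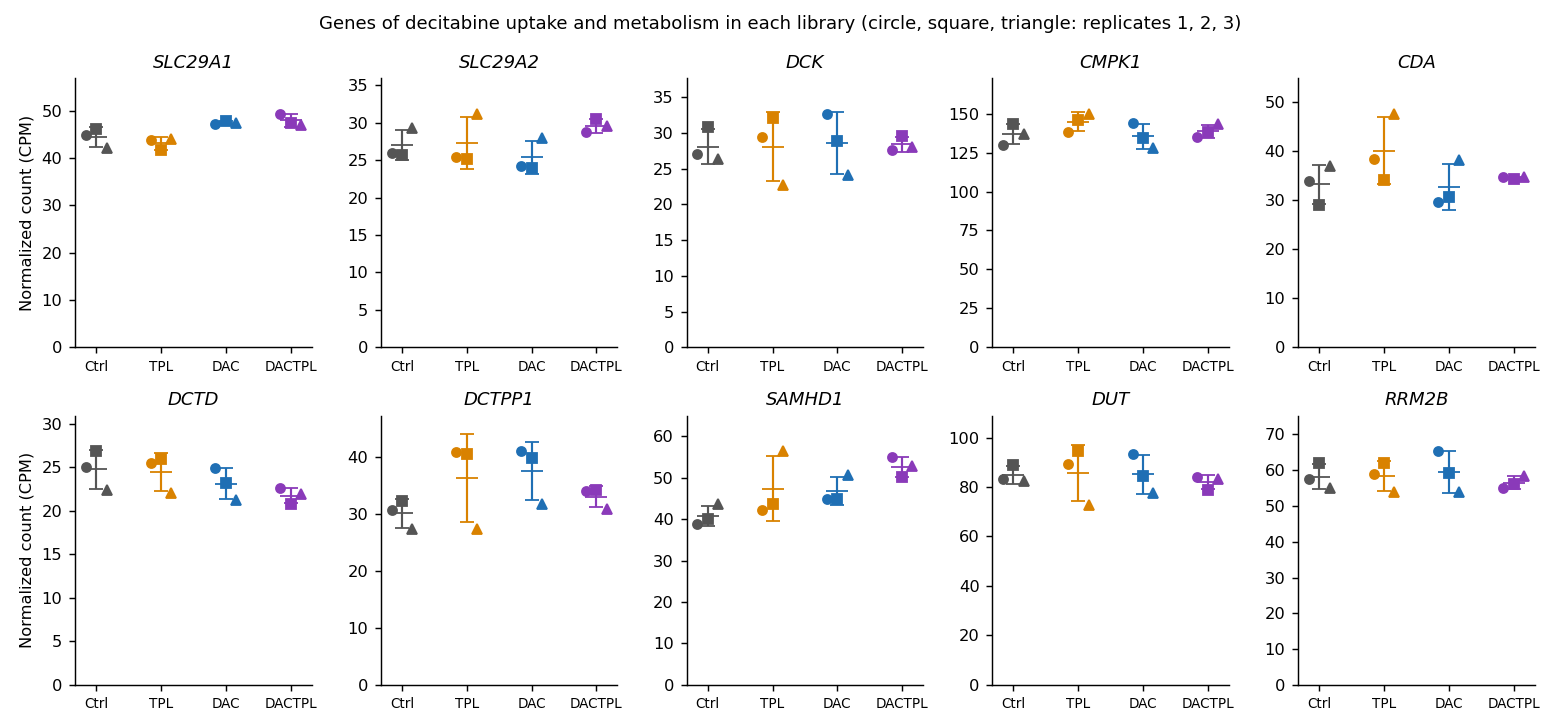
Normalized counts (CPM) of the 10 genes in each of the 12 libraries; the horizontal axis gives the group, symbols mark replicates 1, 2 and 3, and bars give the mean and SD of 3 libraries. SAMHD1 is the gene whose 3 DACTPL libraries (50.1 to 54.9) all lie above its Ctrl libraries (38.9 to 43.6) and that passed the test; DCTPP1 in TPL spans 27.4 to 40.9.

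Differences between groups were small for the whole route, and SAMHD1 in DACTPL against Ctrl was the single call among 10 members and 6 comparisons, at an adjusted p below 0.05. In DAC against Ctrl, 0 of 10 members were called, where edgeR called 9.86% of all genes tested. There 1 member had an unadjusted p under 0.05, beside 25.9% of all genes. In TPL against Ctrl, 0 of 10 members were called, beside 2.47% of all genes. None had an unadjusted p under 0.05, beside 18.9% of all genes. In DACTPL against Ctrl, 1 of 10 was called, SAMHD1, beside 13.5% of all genes. DACTPL against DAC gave 0 of 10 beside 0.0315% of all genes, and DACTPL against TPL 0 of 10 beside 10.5%. In each, 1 member had an unadjusted p under 0.05, beside 15.2% and 25.8% of all genes. The interaction, which asks whether the decitabine difference is the same with and without triptolide, gave 0 of 10 beside 0.00629% of all genes. DCTPP1 was the 1 member with an unadjusted p under 0.05 there, beside 16% of all genes. DESeq2 called 0 of 10 members in each comparison in which edgeR called 0. The median log2 fold change of the members was 0.01 in DAC, 0.01 in TPL and 0.04 in DACTPL against Ctrl, and that of all genes 0.01, 0.00 and 0.01.

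**Figure D2:**
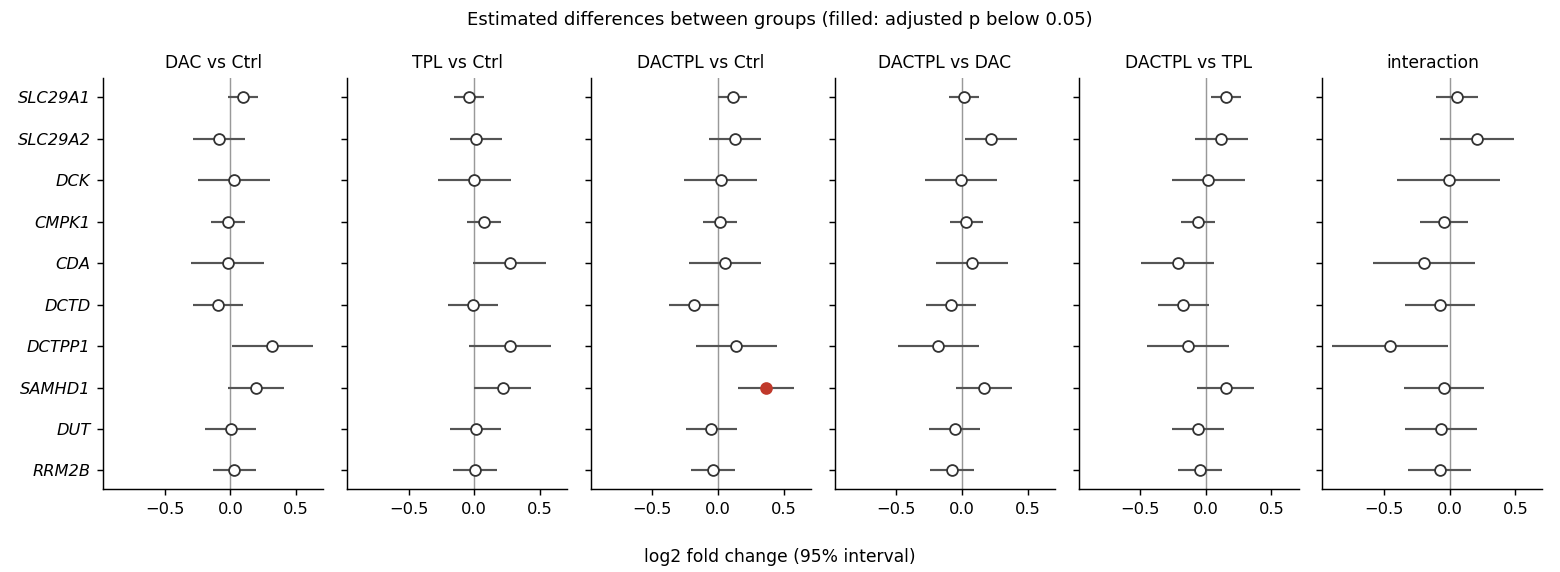
Log2 fold change of each member (points) with its 95% interval (lines) in the 5 comparisons and the interaction, from edgeR over all 12 libraries. The filled point, SAMHD1 in DACTPL against Ctrl at 0.37, is the single call at an adjusted p below 0.05; the interval of DCTPP1 in DAC against Ctrl runs from 0.01 to 0.63.

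DCTPP1 hydrolyses dCTP and its analogues to monophosphates, and decitabine triphosphate is a known substrate. In Ctrl it was measured at 30.7, 32.3 and 27.3 CPM in replicates 1, 2 and 3. TPL gave 40.9, 40.6 and 27.4 CPM, DAC 41.1, 39.8 and 31.7, and DACTPL 34.1, 34.2 and 30.9. Replicates 1 and 2 of TPL and of DAC stood above every Ctrl library, replicate 3 was the lowest of each group, and all 3 treated groups overlapped Ctrl. DCTPP1 was 1.25-fold higher in DAC than in Ctrl (log2 0.32, SE 0.14, 95% interval 0.01 to 0.63), with an edgeR adjusted p of 0.178 and an unadjusted p of 0.0438. In TPL it was 1.21-fold higher than in Ctrl (log2 0.27, interval -0.04 to 0.58, adjusted p = 0.332). Neither difference passed the test after adjustment over all genes, and the DAC interval excluded 0 while the TPL interval did not. In DACTPL the log2 fold change against Ctrl was 0.14 (interval -0.17 to 0.45, adjusted p = 0.57), against DAC -0.18 (adjusted p = 0.507) and against TPL -0.13 (adjusted p = 0.594). The authors' deposited table gave 0.25, 0.22 and 0.10 for DAC, TPL and DACTPL against Ctrl, with adjusted p of 0.181, 0.305 and 0.676.

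The calls for DCTPP1 depended on the processing, TPL replicate 3 included. Without that library, DCTPP1 was called higher in TPL than in Ctrl (log2 0.44, adjusted p = 0.0262) and in DAC than in Ctrl (0.31, adjusted p = 0.0388), and lower in DACTPL than in TPL (-0.32, adjusted p = 0.0448). The interaction for DCTPP1 was then also called (-0.64, adjusted p = 0.0246), against -0.45 with all libraries (SE 0.20, interval -0.89 to -0.01, adjusted p = 0.299). Calls over all genes rose with them, to 930 in TPL against Ctrl, where 2.47% of genes were called with all libraries, from 1566 to 2345 in DAC against Ctrl, from 1671 to 3285 in DACTPL against TPL and from 1 to 950 for the interaction. TPL then held 2 libraries, which were assumed to vary like those of the other groups. With replicate 3 left out of every group, DCTPP1 was 0.36 higher in DAC and 0.37 higher in TPL on the log2 scale (edgeR adjusted p = 0.00215 and 0.00343), while DACTPL stood at 0.09 (adjusted p = 0.283). Genes called over all genes were then 2806 in DAC and 1865 in TPL against Ctrl. The direction in TPL also depended on the scale. Mean DCTPP1 was 37.2 TPM in TPL and 40.3 TPM in Ctrl, the reverse of the order in CPM, on a scale on which the median of all genes was itself lower by 0.29 (log2) in TPL. When each library was centred on the median of its genes, a step added after seeing the data, DCTPP1 in TPL stood at 0.22 above Ctrl (log2, limma adjusted p = 0.347).

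DCTPP1 is a short gene, and short and long genes moved apart between these libraries. Its relative length, derived from the deposited counts and TPM, was 0.343 of the median of 13865 coding genes, in the shortest decile, and its annotated mRNA has 1222 bases. CDA was shorter still, at 0.285 of the median and 963 bases, and also in the shortest decile. RRM2B was the longest member, at 1.7 times the median, and the other 7 lay between 0.647 and 1.08. For each library a length trend was computed as the Spearman correlation, over 13855 coding genes other than the members, of a gene's deviation from its mean log2 CPM with its length. It was 0.24, 0.17 and 0.24 (Ctrl), -0.40, -0.39 and 0.16 (TPL), -0.22, -0.32 and 0.09 (DAC) and -0.20, 0.30 and 0.23 (DACTPL). A negative value means that short genes were high in that library. The libraries thus fell into 5 with negative and 7 with positive trends, and every Ctrl library and every replicate 3 was among the 7.

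In the 5 libraries with a negative trend DCTPP1 lay at 34.1 to 41.1 CPM, and in the other 7 at 27.3 to 34.2. The ranges touch only between DACTPL replicates 1 and 2, at 34.1 and 34.2 CPM. Within the 7 libraries no relation of DCTPP1 with the trend was seen (Pearson r = 0.14, exact permutation p = 0.773, and Spearman rho = 0.04, exact permutation p = 0.964). With 7 libraries over a narrow trend range of 0.09 to 0.30, these values cannot show that a relation was absent. The 5 others were too few for a correlation. With the mean of each group taken off, DCTPP1 and the trend correlated over the 12 libraries at a Pearson r of -0.81 and a Spearman rho of -0.76, given as a description. The same Pearson r ran from -0.78 (DUT) to 0.83 (SLC29A2) in the other members, with DCTD at -0.74 and CDA at 0.70. With group means taken off, a relation of this size was thus not particular to DCTPP1 or to the short members. With group means left in, the Pearson r was -0.85 for DCTPP1, the largest in size among the members. It then ran from -0.63 (DUT) to 0.68 (SLC29A2) in the other members, with CDA at 0.19. The split into 5 and 7 libraries was made after seeing the data. CDA, of like length, did not show the step, with 29.6 to 38.5 CPM in the 5 libraries and 29.0 to 47.7 in the 7. Its highest library was TPL replicate 3, in which DCTPP1 was at 27.4 CPM. DUT lay at 83.9 to 94.6 against 72.9 to 89.0 CPM and SLC29A2 at 24.0 to 28.7 against 25.7 to 31.2, both with overlap.

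**Figure D3:**
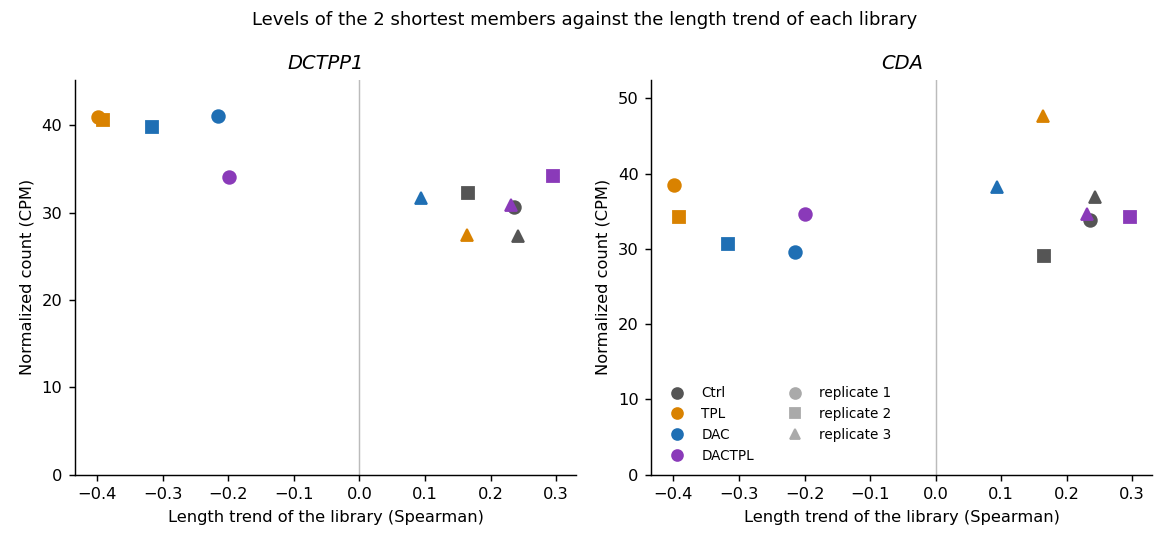
Level (CPM) of DCTPP1 and CDA in the 12 libraries against the length trend of the library (Spearman correlation of deviation with length over coding genes); colours give the group and shapes the replicate number. DCTPP1 lies at 34.1 to 41.1 in the 5 libraries left of 0 and at 27.3 to 34.2 in the 7 to the right, and CDA overlaps across the 2 sets.

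Across genes the length trend ran through every comparison other than DACTPL against Ctrl. In DAC against Ctrl the median log2 fold change was 0.14 in the shortest decile of coding genes and -0.10 in the longest, and in TPL against Ctrl 0.15 and -0.10. In DACTPL against Ctrl the deciles differed less, at 0.06 and 0.00. For the interaction they stood at -0.23 and 0.20, beside -0.45 for DCTPP1 and -0.19 for CDA. The estimate for DCTPP1 lay on the same side of 0 as the median of its decile, and farther from 0, in all 6 comparisons. CDA in DAC against Ctrl was at -0.02, on the other side of 0 from that median.

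**Figure D4:**
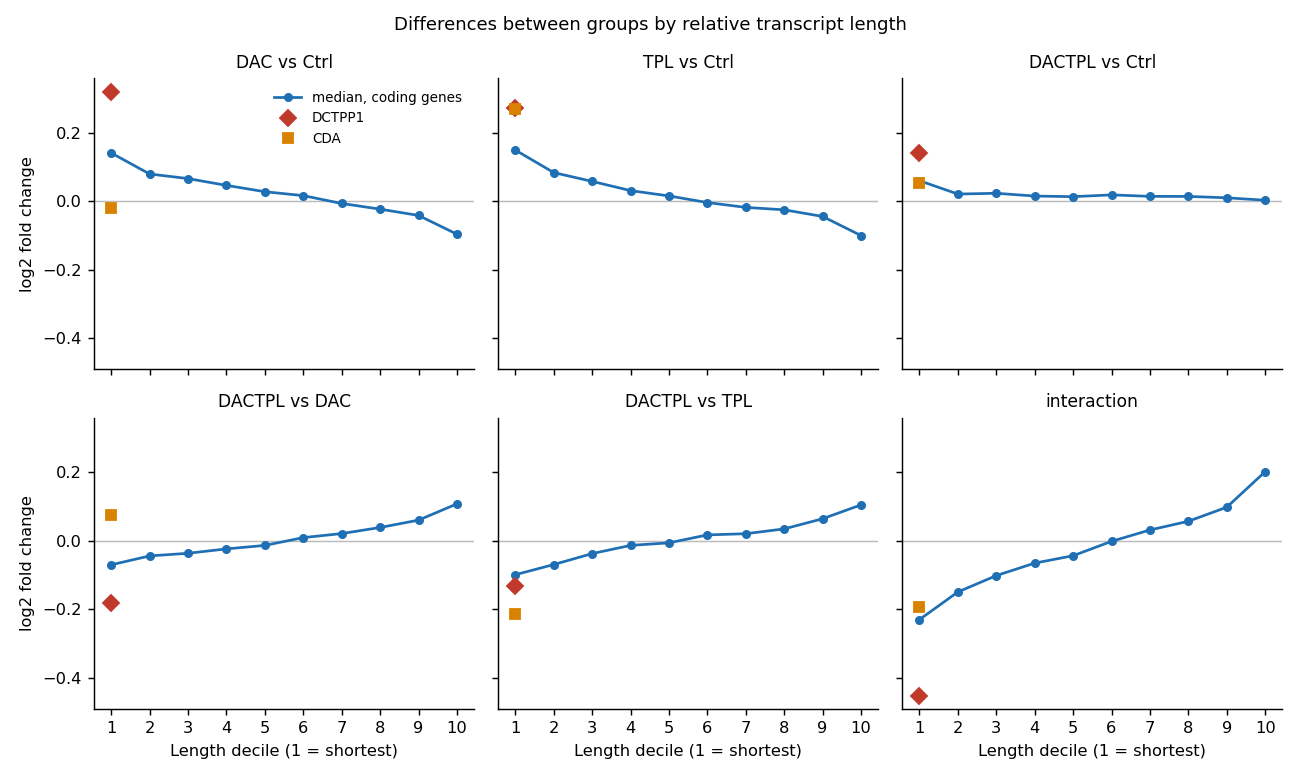
Median log2 fold change of coding genes (line) by deciles of relative transcript length, from shortest (1) to longest (10), with DCTPP1 (diamond) and CDA (square) in their decile. In DAC and TPL against Ctrl the medians run from 0.14 and 0.15 to -0.10, and in the interaction from -0.23 to 0.20.

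After the length trend of every library was taken off, DCTPP1 stood at 32.3, 33.5 and 28.6 CPM (Ctrl), 38.0, 37.4 and 28.3 (TPL), 39.6, 37.4 and 32.2 (DAC) and 33.4, 35.9 and 32.0 (DACTPL). The order of the libraries was little altered, and replicate 3 remained the lowest of each group. At the length of DCTPP1 the trend itself amounted to between -0.07 and 0.12 on the log2 scale. The difference of DAC from Ctrl became 0.21 (log2, edgeR adjusted p = 0.264), that of TPL 0.14 (adjusted p = 0.567), that of DACTPL 0.10 (adjusted p = 0.566) and the DCTPP1 interaction -0.25 (adjusted p = 0.622). The estimates were thus nearer to 0, and DCTPP1 remained uncalled. What made short genes high in 5 libraries, none of them Ctrl, was not tested.

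SLC29A1 (ENT1) and SLC29A2 (ENT2) are the equilibrative transporters that let nucleosides cross the plasma membrane. SLC29A1 was at 44.9, 46.2 and 42.2 CPM (Ctrl), 43.8, 41.6 and 44.1 (TPL), 47.2, 47.8 and 47.5 (DAC) and 49.4, 47.4 and 47.0 (DACTPL). All DAC and all DACTPL libraries lay above all Ctrl and all TPL libraries, by a small margin. The share of all genes whose groups separate in this way is not given here, for this or any other member. The log2 difference was 0.10 for DAC against Ctrl (adjusted p = 0.266), 0.11 for DACTPL against Ctrl (adjusted p = 0.186) and 0.15 for DACTPL against TPL (SE 0.05, interval 0.04 to 0.27, adjusted p = 0.0869). The last passed when the length trend was taken off (SLC29A1 0.17, edgeR adjusted p = 0.0484) and when library totals alone set the scale (0.20, adjusted p = 0.0391). SLC29A2 was at 25.9, 25.7 and 29.3 CPM (Ctrl), 25.4, 25.2 and 31.2 (TPL), 24.2, 24.0 and 27.9 (DAC) and 28.7, 30.5 and 29.5 (DACTPL). Its DACTPL libraries all lay above its DAC libraries (log2 0.22, interval 0.02 to 0.42), with an edgeR adjusted p of 0.302 and an unadjusted p of 0.0337.

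DCK adds the first phosphate to decitabine, and its loss is a known route to resistance in leukaemia cells. It stood at 27.1, 30.8 and 26.3 CPM (Ctrl), 29.4, 32.1 and 22.7 (TPL), 32.7, 28.9 and 24.1 (DAC) and 27.6, 29.6 and 28.0 (DACTPL). The groups overlapped throughout, and the log2 differences from Ctrl were 0.03 in DAC (interval -0.25 to 0.30), 0.00 in TPL (-0.28 to 0.28) and 0.02 in DACTPL (-0.26 to 0.30). CMPK1, the kinase that adds the second phosphate, was the most abundant member at 128 to 150 CPM over the 12 libraries. Its log2 differences from Ctrl were -0.02 in DAC, 0.08 in TPL and 0.02 in DACTPL, with intervals between -0.15 and 0.21.

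CDA deaminates decitabine and DCTD deaminates its monophosphate, both to uracil forms. CDA was at 33.9, 29.0 and 36.9 CPM (Ctrl), 38.5, 34.2 and 47.7 (TPL), 29.6, 30.6 and 38.2 (DAC) and 34.7, 34.3 and 34.7 (DACTPL). TPL replicate 3 was the highest of all, and the groups overlapped. CDA was 1.21-fold higher in TPL than in Ctrl (log2 0.27, interval -0.01 to 0.55, adjusted p = 0.276), a size like that of DCTPP1 in the same comparison. DCTD was at 25.0, 26.9 and 22.4 CPM (Ctrl), 25.5, 26.0 and 22.0 (TPL), 24.9, 23.2 and 21.3 (DAC) and 22.6, 20.8 and 21.9 (DACTPL). The DACTPL libraries were low, with 2 of them below every Ctrl library, and DCTD stood at -0.18 against Ctrl (log2, interval -0.37 to 0.01, edgeR adjusted p = 0.198).

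SAMHD1, a triphosphohydrolase that removes all phosphates from deoxynucleoside triphosphates and from decitabine triphosphate, was the member that passed the test. It was at 38.9, 40.0 and 43.6 CPM (Ctrl), 42.1, 43.6 and 56.5 (TPL), 44.9, 44.8 and 50.7 (DAC) and 54.9, 50.1 and 52.9 (DACTPL). Every DAC and every DACTPL library exceeded every Ctrl library. SAMHD1 was 1.29-fold higher in DACTPL than in Ctrl (log2 0.37, SE 0.10, interval 0.15 to 0.58, edgeR adjusted p = 0.0278), and the authors' deposited table gave 0.31 with an adjusted p of 0.0125. In DAC alone it was 0.20 higher (interval -0.02 to 0.41, adjusted p = 0.235) and in TPL alone 0.22 (adjusted p = 0.266). DACTPL exceeded DAC by 0.17 (adjusted p = 0.393) and TPL by 0.15 (adjusted p = 0.365), and the interaction was -0.05 (interval -0.35 to 0.26, adjusted p = 0.903).

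The SAMHD1 call was lost in 4 of the fits that left out 1 library, while its estimate moved little. Calls over all genes ranged from 1146 to 3065 in such fits, against 2141 with all libraries, and were 1382 without DACTPL replicate 3. Without Ctrl replicate 1 its adjusted p was 0.118, without Ctrl replicate 2 0.101, without DACTPL replicate 1 0.0965 and without DACTPL replicate 3 0.0799, with log2 fold changes of 0.32 to 0.36 in these 4. Taking off the length trend left the SAMHD1 call in place (0.36, edgeR adjusted p = 0.0258). SAMHD1 is abundant in blood cells, and PTPRC, the pan-leukocyte marker, was also called higher in DACTPL than in Ctrl (log2 1.56, edgeR adjusted p = 0.00919) at a mean of 0.625 CPM. The 5 blood markers summed to 1.69 to 2.18 CPM in Ctrl and 2.46 to 2.96 in DACTPL, with HBB at 0 in all. The 6 stromal and endothelial markers summed to 8.95 to 11.6 CPM in Ctrl and 15.3 to 17.3 in DACTPL. Of 4 tested, 3 were called higher, beside 13.5% of all genes. COL1A1, at means of 8.65 CPM in Ctrl and 12.5 in DACTPL, made up most of these sums. COL1A2, PECAM1 and CDH5 were also higher in DACTPL, DCN was near 0, and VWF was lower (0.113 against 0.279 CPM in Ctrl). In DAC, where SAMHD1 was not called, 1 of 2 tested blood markers, PTPRC, was also called higher (log2 1.52, edgeR adjusted p = 0.0134). The same held there for 2 of the 4 tested stromal and endothelial markers, and 9.86% of all genes were called in DAC. The part of these markers in the SAMHD1 result was not tested.

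DUT, which hydrolyses dUTP and so feeds dUMP to thymidylate synthesis, was at 83.2, 89.0 and 82.6 CPM (Ctrl), 89.1, 94.6 and 72.9 (TPL), 93.4, 84.4 and 77.5 (DAC) and 83.9, 78.7 and 83.3 (DACTPL). TPL held both the highest and the lowest of the 12 libraries. Its log2 differences from Ctrl were 0.00 in DAC, 0.01 in TPL and -0.05 in DACTPL, with adjusted p of 0.987, 0.969 and 0.762. RRM2B, the p53-inducible small subunit of ribonucleotide reductase, was at 53.8 to 65.4 CPM over the 12 libraries. Its log2 differences from Ctrl were 0.03 in DAC, 0.00 in TPL and -0.04 in DACTPL, with intervals between -0.21 and 0.20.

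The members shared a pattern that crossed the groups. In each of Ctrl, TPL and DAC, replicate 3 was the lowest library for DCTPP1, DCK, DCTD, DUT and RRM2B and the highest for CDA, SAMHD1 and SLC29A2. In DACTPL replicate 3 was again the lowest for DCTPP1, while RRM2B was highest there and CDA hardly differed between libraries. Of the 45 pairs of members over the 12 libraries, DCK and DUT were most alike (Pearson r = 0.89 in log2 CPM) and DCK and CDA least (-0.79). Among 9777 coding genes with a mean of at least 10 CPM, the 5 most like DCTPP1 over the 12 libraries were NTMT1 (r = 0.97), SLC25A5 (0.96), GBAS (0.96), WDYHV1 (0.96) and HIST1H2AD (0.95), all of them shorter than the median at 0.124 to 0.659 of it. HIST1H2AD belongs to a family of near-identical histone genes, between which reads may have been divided. With the length trend taken off, the 5 were NARG2 (0.95), USP15 (0.93), CCT4 (0.93), NTMT1 (0.93) and GBAS (0.92). These values describe likeness across the same 12 libraries, which share the length trend and the replicate 3 pattern.

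Around the 10 members, the share of genes called in the wider pathway was near that of all genes. Of 72 tested genes in 6 lists, 8 were called in DAC against Ctrl (11.1%, beside 9.86% of all genes), 2 in TPL (2.78%, beside 2.47%) and 12 in DACTPL (16.7%, beside 13.5%). Of 9 tested transporters and efflux pumps outside the members, ABCC4, an exporter of nucleotides and their analogues, was higher in DAC (161 ± 3.14 against 127 ± 2.20 CPM, SD, n = 3; log2 0.35, edgeR adjusted p = 0.000505) and in DACTPL (171 ± 2.40 CPM; 0.44, adjusted p = 6.57e-05). ABCC11 was lower in DAC (log2 -0.78, adjusted p = 0.042) and in DACTPL (-0.85, adjusted p = 0.0241), at under 2 CPM in every library. ABCG2, a drug efflux pump, was lower in DACTPL than in Ctrl (-0.27, adjusted p = 0.0308) and than in TPL (-0.49, adjusted p = 0.00112). In TPL against Ctrl 0 of these 9 were called, with 1 at an unadjusted p under 0.05, beside 18.9% of all genes.

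Of 17 other nucleoside and nucleotide kinases, 2 rose in DAC, 1 in TPL and 2 in DACTPL against Ctrl, and 0 fell, beside 9.86, 2.47 and 13.5% of all genes called in either direction. CMPK2, an interferon-inducible mitochondrial kinase, had 3 counts over the Ctrl libraries, 61 over DAC and 75 over DACTPL. Its ratio to Ctrl was 20.5 in DAC (95% counting interval 6.68 to 102) and 27.0 in DACTPL (8.88 to 134), with edgeR adjusted p of 0.000945 and 0.000264. GUK1, guanylate kinase, rose in TPL (81.1 ± 4.56 against 62.3 ± 4.60 CPM; log2 0.38, adjusted p = 0.0158) and in DAC (0.23, adjusted p = 0.0384). UCKL1, a uridine-cytidine kinase, rose in DACTPL (0.25, adjusted p = 0.0391), and UCK2 was higher in DACTPL than in TPL (0.20, adjusted p = 0.0446). With the length trend taken off, GUK1 was uncalled in TPL (0.24, adjusted p = 0.104) and in DAC (0.12, adjusted p = 0.288), as were UCKL1 (0.24, adjusted p = 0.0673) and UCK2 (0.15, adjusted p = 0.117).

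Of 17 tested nucleotidases, phosphorylases and pool cleansing hydrolases, 0 were called in DAC or TPL against Ctrl. An unadjusted p under 0.05 was found for 3 in DAC and 2 in TPL, beside 25.9% and 18.9% of all genes. In DACTPL 1 rose and 1 fell against Ctrl. DPYD, the first enzyme of pyrimidine breakdown, was at 5.57 ± 0.627 CPM against 3.28 ± 0.34 (log2 0.76, edgeR adjusted p = 0.000544). UPP1, uridine phosphorylase, was at 76.7 ± 11.9 CPM against 159 ± 24.4 (log2 -1.05, adjusted p = 0.0324). Of 16 genes of deoxynucleotide synthesis, SHMT1 rose in DAC (0.24, adjusted p = 0.00977) and DACTPL (0.17, adjusted p = 0.0443), and DHODH fell in DACTPL by 0.31 on the log2 scale (adjusted p = 0.0334). RRM1, RRM2 and TYMS were not called. Of 9 uracil and base excision enzymes, APEX1 rose in TPL (0.31, adjusted p = 0.0247), DAC (0.22, adjusted p = 0.0415) and DACTPL (0.36, adjusted p = 0.00181), and TDG, a thymine DNA glycosylase, in DAC (0.22, adjusted p = 0.0122) and DACTPL (0.27, adjusted p = 0.00264). APEX1, the abasic site endonuclease, was uncalled in TPL (0.23, adjusted p = 0.156) and DAC (0.14, adjusted p = 0.254) with the length trend taken off and remained called in DACTPL (0.35, adjusted p = 0.00694). Without TPL replicate 3 the SHMT1 call in DACTPL ended (0.15, adjusted p = 0.0503). Of the drug targets, DNMT3B rose in DAC and DACTPL (log2 0.45 in each, adjusted p = 0.00301 and 0.00237), and DNMT1, DNMT3A and ERCC3 were not called against Ctrl.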

How the data were processed

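Total RNA of DU145 cells was sequenced from stranded libraries, 12 in all, per the labels' protocols. Expected counts and TPM were deposited for every gene and library, which the authors produced using RSEM 1.2.09; the submitters' processing notes name hg19 as the build. The read aligner, the annotation, the counting strand and the handling of reads with several matches are not given in the sources used here. Log2 fold changes with p-values for each comparison were also deposited, and the submitters' processing notes name DESeq2 and R 4.0.4. A deposited list of z-scores held none of the members and was not used.

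Expected counts were rounded to whole numbers and tested in edgeR 4.0.16 (R 4.3.3) with TMM factors (0.957 to 1.03), filterByExpr by group and a robust quasi-likelihood fit of 4 groups over all 12 libraries, two-sided, with Benjamini-Hochberg adjustment over 15890 genes. Calls required an adjusted p under 0.05. The procedure was tested on simulated data. CPM were computed on TMM-scaled library sizes. Relative length was derived from the ratio of counts to TPM, with annotated mRNA lengths from GENCODE matched by RefSeq accession. The length trend of a library was smoothed by lowess with a span of 0.3 and taken off as an offset. Alternatives were DESeq2 1.42.0, limma 3.58.1 on voom values and on log2(TPM + 1) and log2(TPM + 0.1), other factors and filters, and left-out libraries.

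The 10 members are all named, with the called genes of each pathway list (up to 4 by size per list and comparison, of which a selection is printed). The members and lists were chosen with earlier results of these data known. RefSeq promoter sequences on GRCh38.p14 were used for sequence only, because the counts are on hg19. No protein sequences were used here.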

Additional observations from a re-analysis of the deposited data

Results flagged for a closer look

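The estimated decitabine difference of DCTPP1 was above 0 without triptolide and below 0 with it. All 3 DAC libraries (41.1, 39.8 and 31.7 CPM) lay above the Ctrl mean of 30.1 CPM, while all 3 DACTPL libraries (34.1, 34.2 and 30.9 CPM) lay below the TPL mean of 36.3 CPM. DAC replicate 3 lay below Ctrl replicate 2, which was at 32.3 CPM, so DAC and Ctrl overlapped. TPL replicate 3, at 27.4 CPM, lay below all 3 DACTPL libraries, so TPL and DACTPL overlapped (log2 -0.13, edgeR adjusted p = 0.594). The interaction was -0.45 (log2, SE 0.20) with an edgeR adjusted p of 0.299 and an unadjusted p of 0.0445, so it did not pass the test. For the interaction, 16% of all genes had an unadjusted p under 0.05. Over its alternatives the adjusted p ranged from 0.00308 to 0.636. It passed the threshold without TPL replicate 3 (DCTPP1 interaction -0.64, adjusted p = 0.0246), without every replicate 3 (-0.64, adjusted p = 0.00308), and when the length trend was also taken off there (-0.35, adjusted p = 0.0368). With the length trend taken off, the DCTPP1 interaction was -0.25 (adjusted p = 0.622), and the median of the shortest decile of coding genes stood at -0.23 before that step.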

How the results depend on the processing

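Each comparison was recomputed under 29 alternatives (the interaction under 28), of which the centred TPM, the length trend together with leaving out every replicate 3, and the split of libraries by trend were chosen after seeing the data. DCTPP1 stayed on its side of the threshold in 24 of 29 for DAC against Ctrl, 27 for TPL against Ctrl, 29 for DACTPL against Ctrl, 28 for DACTPL against DAC, 27 for DACTPL against TPL and 25 of 28 for the interaction. SAMHD1 in DACTPL against Ctrl kept its call in 23 of 29, with log2 values of 0.20 to 0.42.

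Leaving out 1 library at a time gave DCTPP1 log2 values of 0.25 to 0.43 in DAC and 0.18 to 0.44 in TPL against Ctrl, -0.32 to -0.062 in DACTPL against TPL and -0.64 to -0.38 for the interaction. Members called then ranged from 0 to 1 in DAC, TPL and DACTPL against Ctrl and the interaction, and from 0 to 3 in DACTPL against TPL. Genes called over all genes ranged from 753 to 2345 (DAC), 25 to 930 (TPL) and 1146 to 3065 (DACTPL) against Ctrl. They ranged from 955 to 3285 in DACTPL against TPL and from 0 to 950 for the interaction. The 3 members were called without TPL replicate 3, where 3285 of all genes were called. Without replicate 3 of every group DCTPP1 stood at 0.36 (DAC) and 0.37 (TPL) against Ctrl, -0.26 for DACTPL against DAC, -0.28 against TPL and -0.64 for the interaction, all called. Members called were then 1, 1 and 2 in DAC, TPL and DACTPL against Ctrl, 3 and 4 in DACTPL against DAC and TPL, and 2 for the interaction. Genes called over all genes went from 5 to 2134 in DACTPL against DAC and from 1 to 2049 for the interaction. They were 2806, 1865 and 3815 in DAC, TPL and DACTPL against Ctrl, and 3709 in DACTPL against TPL. With the length trend also taken off, DCTPP1 was at 0.23 in DAC against Ctrl and -0.35 for the interaction, with 1, 2, 4, 4 and 2 members called in DAC and DACTPL against Ctrl, DACTPL against DAC and TPL, and the interaction, where 2492, 4216, 2378, 3580 and 730 of all genes were called. The cause was not tested.

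With a replicate block, DCTPP1 was called in DAC against Ctrl (0.31, adjusted p = 0.0167) and members called there were 1, beside 2574 of all genes. With the block and the length trend taken off it was at 0.21 (adjusted p = 0.0377), with 1, 2, 1 and 1 members called in DAC and DACTPL against Ctrl and DACTPL against DAC and TPL, where 2572, 3965, 925 and 2746 of all genes were called. The numbers were not taken to pair the samples under this replicate block, since deviations of same-numbered libraries correlated at -0.18 to 0.50, above 0.1 in 11 of 18 pairs. Differently numbered libraries correlated at -0.34 to 0.30, and the pairs of replicate 3 at 0.13 to 0.50. A factor shared by replicate 3 was not part of the main fit. In DACTPL against TPL 1 member was called on library totals alone and 1 with the length trend taken off.

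On log2(TPM + 1), where the median of all genes was -0.29 in TPL against Ctrl and 0.24 for the interaction, 5 members reversed in TPL against Ctrl: DCK -0.36, SLC29A2 -0.34, CMPK1 -0.29, DUT -0.37 and RRM2B -0.35, and CMPK1 was at 0.28 for the interaction. With log2(TPM + 0.1) they were DCK -0.38, SLC29A2 -0.36, CMPK1 -0.30, DUT -0.38 and RRM2B -0.37, and CMPK1 0.28. Members called were 7 in TPL against Ctrl, 3 (2 with 0.1) in DACTPL against Ctrl, 3 in DACTPL against TPL and 3 for the interaction. Calls over all genes are not given separately for these TPM fits. Over all alternatives such calls reached 10907 in TPL against Ctrl and 5103 for the interaction, where the main fit tested 15890 genes. The member counts are therefore not read as a result about the members. Centred on each library's median, 0 of these reversals remained. Over all alternatives the genes called ranged from 753 to 2806 in DAC, 23 to 10907 in TPL and 1146 to 4764 in DACTPL against Ctrl, 0 to 2378 in DACTPL against DAC, 784 to 5786 in DACTPL against TPL and 0 to 5103 for the interaction.

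The relation of DCTPP1 with the length trend over the 12 libraries was -0.85 pooled (Pearson, permutation p = 0.00087) and -0.71 as a Spearman rho (permutation p = 0.0133). Without TPL replicates 1 and 2 it was -0.77 (Pearson) and -0.55 (Spearman). The permutation moved libraries between groups, so its p cannot separate the length trend from group or replicate number. The relation was -0.92 to -0.82 with 1 library left out and -0.51 with TPM as its level. It was -0.81 with group means taken off and 0.14 within the 7 libraries of positive trend. The 5 libraries of negative trend were too few for a value of their own.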
